A study of Mus musculus with 3 samples.

Results

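Ribosomal proteins are the protein components of the cytoplasmic ribosome, which builds every protein of the cell on its large and small subunits together with ribosomal RNA. Their genes are named Rpl for the large and Rps for the small subunit. Their mRNAs are among the most abundant in most cells, and most start with a run of pyrimidines, the terminal oligopyrimidine (TOP) tract, through which mTOR signalling controls their translation. In hippocampal neurons, new protein synthesis after training is needed for long-term memory, and ribosomes and ribosomal protein mRNAs are also found in dendrites and axons.

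The genes described here were chosen by symbol: probe sets annotated to a single mouse gene whose symbol is Rpl or Rps followed by a digit, or is Rplp0, Rplp1, Rplp2 or Rpsa, without the Rps6k kinases and without the mitochondrial ribosomal proteins. This rule found 49 of 10833 single-gene probe sets, which named 35 of 8251 genes, 17 of the large and 18 of the small subunit. The array held 12488 probe sets in all. A further 39 probe sets named a ribosomal protein together with other genes, mostly pseudogenes or predicted genes, and are not members. Because of this, Rps6, Rpl3, Rpl5, Rpl10 and Rplp1 are not among the 35 genes.

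The RNA was from hippocampal area CA1. The mice were young males of the inbred strain C57BL/6J. Each mouse had been placed in an unfamiliar context, where a foot shock of 1 s at 0.5 mA followed after 2 min, with 3 such rounds and a return to the home cage 1 min after the final shock. RNA was taken 6 h after that shock and measured on 3 arrays, numbered 1, 2 and 3 by the labels, which do not say whether an array held 1 animal or a pool. All 3 arrays belong to this single group, with no unconditioned animals, so none of the values below measures an effect of conditioning, and the spread between arrays may be biological or technical.

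The deposited signal is a linear brightness per probe set, and a probe set is called above threshold when its mean over the arrays exceeded 174.8, the median of all deposited values. A transcript can be present with a signal under the threshold. Signals of different probe sets are not on a common scale, so genes are not ranked by level. The median signal was between 171 and 177 on the 3 arrays. Of 7 CA1 pyramidal neuron markers, 4 had a probe set and all 4 were above threshold, against 59.1% of all named genes. The astrocyte, microglia and meningeal markers, 4 of each, were all above it too, so the CA1 count does not single out CA1. Of 3 dentate granule cell markers Calb1 and Dsp were above it, while Prox1 gave 26.7, 10.6 and 47.8. In tissue RNA, fewer cells of a type and less RNA per cell cannot be told apart. The arrays differed in RNA measures. Dividing the 3' by the 5' control signal gave 3.99, 1.21 and 3.94 for Gapdh and 2.57, 1.86 and 3.50 for Actb, in the order of the arrays. The 6 choroid plexus and ependyma markers summed to 3879, 7580.2 and 2360.1, and the 4 meningeal markers to 12106, 7075 and 7215. Such sums follow the brightest probe sets. Of the meningeal sums, Ptgds alone gave 8808, 4634.5 and 4726.

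Of the 35 ribosomal protein genes, 25 (71.4%) were above threshold at their brightest probe set, which stands for the gene throughout, against 59.1% of all named genes. All 25 were above it on each of the 3 arrays, and 19 of them had a mean signal above 1000, a split chosen after the values were seen. Over probe sets the share was 28 of 49, or 57.1%, against 52.0% of all single-gene probe sets. These shares describe the probe sets on this array, and 15 of the 49 carry a suffix other than the plain one, which marks probe sets with possible cross-hybridization or relaxed design rules.

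**Figure D1:**
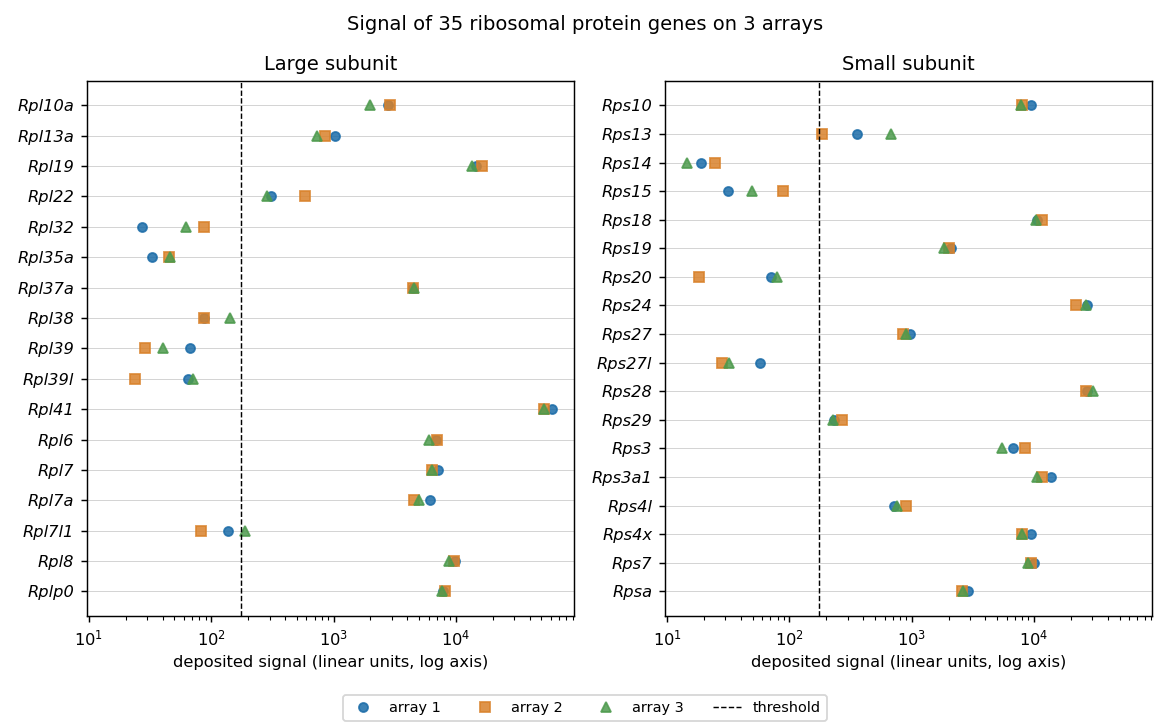
Deposited signal (log axis) of each of the 35 ribosomal protein genes at its brightest probe set on arrays 1, 2 and 3, with large-subunit genes on the left and small-subunit genes on the right. The dashed line is the threshold of 174.8. The 3 arrays nearly coincide for most of the 25 genes to its right and scatter for the 10 genes with a mean to its left.

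Large-subunit genes gave close values on the 3 arrays. Rplp0, the base of the stalk that recruits elongation factors, gave 7855, 8141 and 7723 on arrays 1, 2 and 3. Its log2 range between the highest and lowest array, after scaling to a common median, was 0.046, the smallest of the 25 genes. Rpl37a, a small zinc-binding protein, gave 4500.1, 4463 and 4545.5, a log2 range of 0.076. Rpl8, which lies close to the peptidyl transferase centre, gave 9796, 9699 and 8866. In these genes no array stood far from the others.

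Rpl6 gave 6814, 6947 and 6015, and Rpl7 gave 7184, 6376 and 6395. Rpl19, which takes part in a bridge between the subunits, gave 14582, 16221 and 13659. Rpl41, which encodes a very short basic peptide, gave 61197, 52771 and 52951. Array 1 was highest for Rpl7 and Rpl41, and array 2 for Rpl6 and Rpl19. Rpl7a gave 6175, 4585 and 4980.0, with array 1 standing above the others.

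The widest ranges of the large subunit belonged to 3 genes that were lowest on array 3. Rpl22, an RNA-binding protein that ribosomes can do without in mice, gave 310.2, 583 and 287.5, a log2 range of 0.97, with array 2 apart from the others. Rpl10a, the protein tagged in mice for ribosome affinity purification, gave 2769.5, 2895 and 1989, a log2 range of 0.49. Rpl13a, known also as a translational silencer in inflammation, gave 1035.5, 845.5 and 738, a log2 range of 0.45. For all 3 genes the limma variance test, fitted over 6218 probe sets above threshold, gave no call, with adjusted p from 0.971 to 0.988.

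Small-subunit genes were similarly close, with a median SD of log2 signal of 0.13, against 0.10 for the large subunit. Rps7 gave 9957, 9378 and 8934, and Rps18, a protein of the subunit's head, gave 10557, 11564 and 10314. Rps19, needed for maturation of the small subunit and mutated in human Diamond-Blackfan anaemia, gave 2108, 2019.8 and 1843. Their log2 ranges were 0.11, 0.13 and 0.15. Rpsa, also known as the laminin receptor precursor, gave 2871, 2573.5 and 2606.

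Array 1 was the highest for Rps10, Rps3a1 and Rps4x. Rps10, a target of ubiquitination when ribosomes collide, gave 9487, 8038 and 7887. Rps3a1 gave 13788, 11558 and 10631, and Rps4x, encoded on the X chromosome, gave 9420.2, 7996 and 7953. For these 3 genes arrays 2 and 3 lay closer to each other than to array 1. Rps3, a protein of the mRNA entry channel, gave 6789, 8471 and 5472, a log2 range of 0.58, with array 2 highest and array 3 lowest.

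Rps13 was the exception among the 25 genes. Its signal was 359, 184.5 and 674 on arrays 1, 2 and 3, so that array 3 was highest and array 2 was close to the threshold. The log2 range of 1.92, or 3.78-fold, made it the 1 gene of 25 (4%) more than 2-fold apart between arrays, against 10.2% of the 4876 measured genes. It was also the 1 gene with an unadjusted variance p under 0.05 in limma, against 4.57% of measured genes, and it did not pass after adjustment over all probe sets (limma, adjusted p = 0.733). Without array 2, 0 of the 25 genes were more than 2-fold apart, against 2.89% of all genes measured then, and without array 3 also 0, against 5.56%. Its only single-gene probe set has the suffix _r_at, which marks relaxed design rules. In all, 0 of the 25 genes passed the limma variance test at an adjusted p of 0.05, as against 0.0205% of measured genes. On simulated data this test called 0% of changes of 2 log2 units on 1 array, and no range among the 25 genes exceeded 1.92. The count of 0 therefore carries little information on these genes.

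Most ribosomal protein genes varied little between arrays. The median SD of log2 signal over the 3 arrays was 0.12 for the 25 genes and 0.25 for all 4876 measured genes. Spread falls as signal rises, so genes above and below a mean signal of 1000 were also taken separately. This split is coarse and does not match signal within either part, so level can still enter the contrasts that follow. With a mean signal above 1000, the median SD was 0.10 for 19 ribosomal protein genes and 0.21 for 1552 genes, and 0 of the 19 were more than 2-fold apart between arrays, against 4.77% of the 1552. At 1000 or less it was 0.19 for 6 ribosomal protein genes and 0.27 for 3324 genes. These medians are descriptions without a test. Without array 1 the median of the 25 genes was 0.082.

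**Figure D2:**
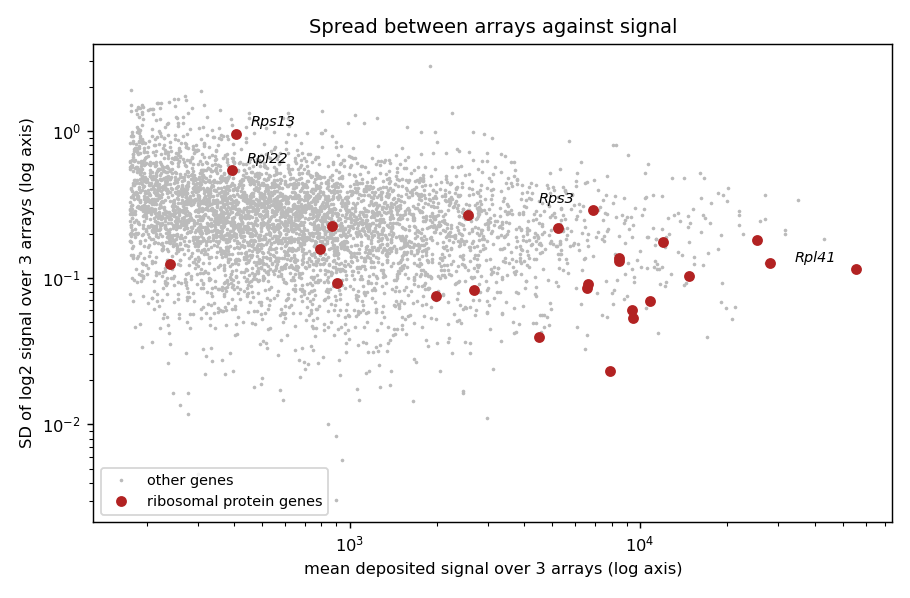
SD of log2 signal over the 3 arrays (log axis) against mean deposited signal (log axis) for 4876 measured genes, with the 25 ribosomal protein genes in red. Most red points above a signal of 1000 lie in the lower part of the grey cloud, and Rps13 and Rpl22 lie in its upper part.

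On array 3 most of the 25 ribosomal protein genes lay slightly lower than on the others, while most measured genes lay higher. The shift of a gene on an array is its log2 signal there minus the mean of the other arrays. On array 3, 20 of the 25 genes lay below the mean of the others, against 43.5% of measured genes, and the median shift was -0.066, against 0.060 for all measured genes. Among genes with a mean signal above 1000, 16 of 19 lay below, against 36.5% of 1552 genes, with medians of -0.066 and 0.096. The shifts are small: 15 of the 20 lower genes lay within 0.15 of the others' mean, and the lowest were Rpl22 at -0.52, Rpl10a at -0.46 and Rps3 at -0.42. Outside the members, 34 probe sets above threshold named a ribosomal protein among several genes. Their median shifts were smaller in size, at 0.010 on array 1 and -0.017 on array 3, against 0.0039 and 0.060 for all measured genes. On array 3 their median was also lower than that of all measured genes, but less so than that of the 25 genes. The size of the shifts of the 25 genes thus does not describe all ribosomal protein probe sets.

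The 5 genes that lay higher on array 3 were Rps13 at 1.44, Rps28 at 0.22, Rps24 at 0.18, Rpl37a at 0.067 and Rps27 at 0.023. The probe sets that stand for Rps13, Rps28 and Rps24 carry a suffix other than the plain one. So do those of Rpl41, Rpl7 and Rps4l, which lay lower. A plain-suffix probe set of Rps28 also lay higher, at 0.19. On array 1 the median shift was 0.10, against 0.0039 for all measured genes, and 9 of the 25 genes lay below the mean of the others, against 49.6%. On array 2 the median was -0.047, close to the -0.065 of all genes, and 14 of 25 lay below, against 55.5%. It turned positive after quantile normalization, at 0.016, after cyclic loess, at 0.048, and without array 1, at 0.025. The medians on arrays 1 and 3 kept their sign in each alternative in which they could be computed.

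Taken gene by gene, array 1 was the highest for 12 of the 25 genes, against 28.8% of measured genes, array 2 for 9, against 32.6%, and array 3 for 4, against 38.6%. Array 1 was the lowest for 4 genes, against 29.9%, array 2 for 11, against 43.1%, and array 3 for 10, against 27.0%. After scaling, the 4 genes highest on array 3 were Rpl37a, Rps13, Rps24 and Rps28.

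Genes of both subunits lay mostly lower on array 3. There, 10 of 11 large-subunit and 10 of 14 small-subunit genes lay below, against 43.5% of measured genes. The medians were -0.090 and -0.060, against 0.060 for all measured genes. On array 2 the large-subunit median was 0.030 and the small-subunit median -0.11, against -0.065 for all measured genes. The array also carries control probe sets for 18S ribosomal RNA, the RNA of the small subunit. The 3' probe set gave 2185, 1053 and 416, the middle one 518, 168 and 136, and the 5' one 309, 301 and 115 on arrays 1, 2 and 3. All of these were lowest on array 3. The 3'/5' quotient of Actb was highest there, at 3.50, while that of Gapdh was 3.99 on array 1 and 3.94 on array 3. Of the 6 choroid plexus and ependyma markers, 4 were also lowest on array 3, with Ttr, which carries most of their summed difference, at 1334, 4257 and 94.2, whereas Kl was lowest on array 1 and Aqp1 on array 2. The part of these measures in the shifts of the ribosomal protein genes was not tested.

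**Figure D3:**
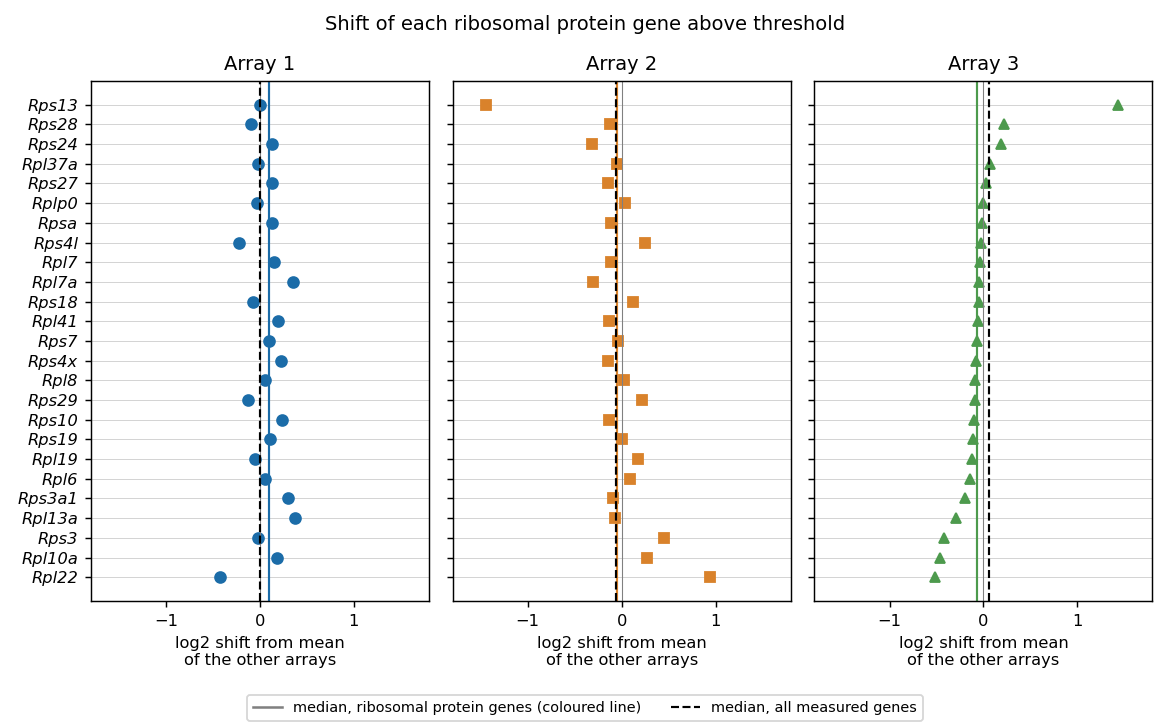
Log2 shift of each of the 25 ribosomal protein genes on each array from the mean of the other arrays, ordered by the shift on array 3. Solid lines mark the median of the 25 genes (0.10, -0.047 and -0.066) and dashed lines that of all measured genes (0.0039, -0.065 and 0.060). On array 3 the points of 20 genes lie left of 0.

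Of the 10 genes with a mean under the threshold, 9 were under it on every array. Rps14, a protein of the small subunit's platform, gave 18.8, 24.7 and 14.6. Rps20 gave 70.8, 18.2 and 79.3, and Rps15, a protein near the decoding site, gave 31.3, 88.7 and 49.4. Rpl32 gave 27.3, 88.0 and 62.1, Rpl35a 32.8, 45.1 and 45.8, and Rpl39, which lines the exit tunnel and is encoded on the X chromosome, 66.6, 28.7 and 40. The brighter of the probe sets for Rpl38, the protein lost in the tail-short mouse, gave 87.1, 87.0 and 143. These are standard components of the ribosome, and no single order of the arrays was common to all of them.

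The other 3 genes of the low group were paralogs of core ribosomal proteins. Rpl39l, which is known from testis, gave 65.0, 23.7 and 70.6, under threshold like its parent gene Rpl39. Rps27l, a target of p53, gave 57.1, 28.0 and 31.8, whereas its parent gene Rps27 gave 966, 855 and 894. Rpl7l1, a relative of Rpl7, gave 137, 82.1 and 189 and was above threshold on array 3 only. A further paralog, Rps4l, a relative of Rps4x, was above threshold and gave 719, 895 and 762 with a probe set whose suffix marks sequence shared between transcripts. Probe sets of paralogs can share sequence, so these values may include signal from the parent gene.

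More than 1 single-gene probe set was present for 10 genes. In 8 of the 10 at least 1 probe set was under threshold, where the order of the arrays carries little information. In the other 2, Rpl10a and Rps28, all probe sets were above threshold, and in both genes the highest array differed between them. Rps4x, with 5 probe sets, had 1 above threshold, and the other 4 gave values from 7.4 to 219, of which the widest gave 88.4, 16.9 and 219. For Rpl22 the brighter probe set was highest on array 2, but the second gave 247, 62.8 and 128 and was lowest there. For Rpl19 the second gave 211, 70.1 and 152, also lowest on array 2, where the first was highest.

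For Rpl10a both probe sets were above threshold and both were lowest on array 3. The second gave 1723, 1419.0 and 789.8, a log2 range of 1.08 (limma, unadjusted p = 0.0437, adjusted p = 0.909). Its suffix, _f_at, is not the plain one, so it may cross-hybridize. The lower value on array 3 was seen with both probe sets, which are not replicates of each other. Of the 3 probe sets of Rps28, which lies at the mRNA exit, 2 were highest on array 3, at 27123, 26770.2 and 30315 and at 11600.1, 12360.1 and 13213. The third was highest on array 1, at 559, 364 and 345. Rps29, a zinc-binding protein of the small subunit, gave 229, 269 and 225 with its brighter probe set and 44.8, 87.7 and 51.1 with the other, both highest on array 2.

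Rps24, mutated in some human families with Diamond-Blackfan anaemia, rests on an uncertain probe set. The brighter one gave 26911, 22056 and 26783, but the platform annotation ties it to the same sequence record as the brighter probe set of Rpl7, the 1 record shared by members of different genes. The other probe set of Rps24 gave 70.1, 92.7 and 170, under threshold on every array. The second probe set of Rpl7 gave 51.1, 29.5 and 53.8, and that of Rps4l gave 112, 17.9 and 15.7. The counts above would differ if another probe set stood for the gene.

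**Figure D4:**
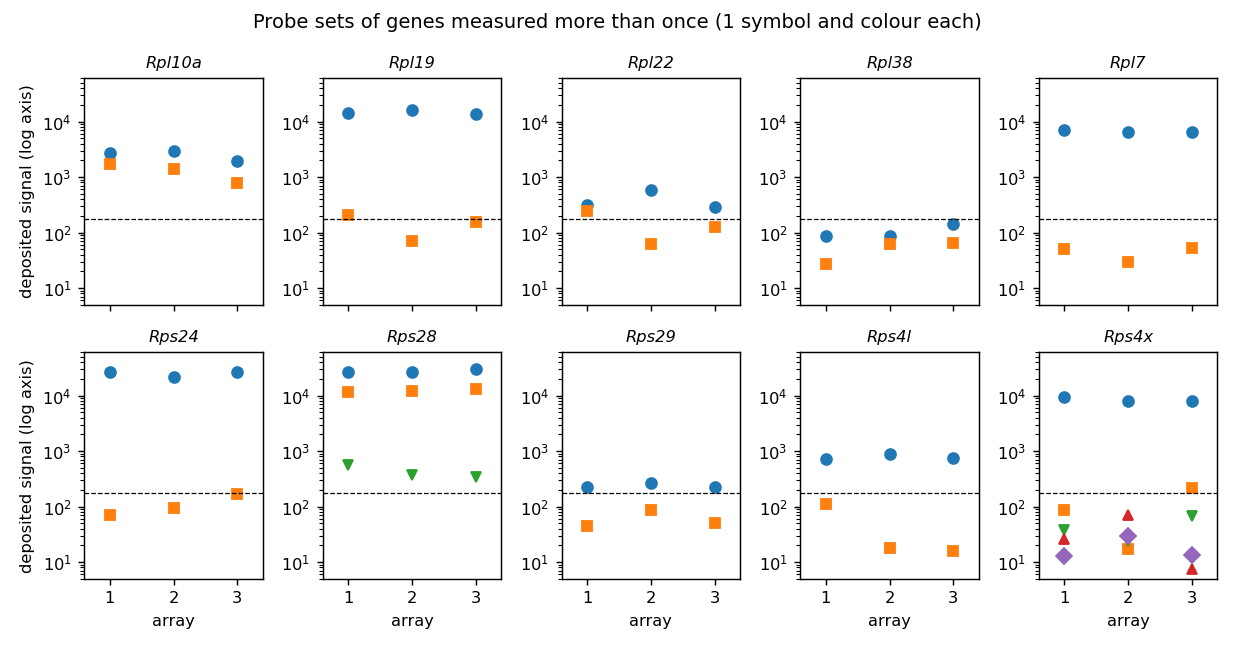
Deposited signal (log axis) on arrays 1, 2 and 3 for every probe set of the 10 genes with more than 1 single-gene probe set, each probe set with its own symbol and colour, ordered by mean. The dashed line is the threshold of 174.8. In 8 of the 10 genes at least 1 probe set has its mean under the line.

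Sequence around the transcription start was examined because a shared TOP tract is a known feature of these genes that the choice by symbol did not use. Promoter entries from RefSeq (GRCm38.p6) matched 28 of the 35 genes, with 37 annotated starts. Rpl32, Rpl7, Rpl8, Rps14, Rps20, Rps29 and Rps4l had no entry. At the annotated start, a C followed by 4 pyrimidines stood in 5 of 37 member starts (13.5%) against 2.51% of 32851 starts in the whole table. These were Rpl35a, Rpl38, Rps10, Rps18 and Rps27. The motif CTTTC or TTTCC, which overlap in CTTTCC, occurred on the transcribed strand within 20 bases on either side of the start in 9 of 37 member starts (24.3%) and 9.56% of all starts. On the other strand it occurred in 8.11% of member starts and 8.62% of all starts. Annotated starts can lie several bases from the base where transcription begins, and a match is a description of letters, not a site.

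The windows below run from 20 bases before to 20 bases after the annotated start, 5' to 3' on the gene's strand, with CTTTC and TTTCC in capitals. Of the 9 windows with the motif, those of Rpl13a and Rpl39l are left out. The others show it in 5 genes above threshold, Rps10, Rps27, Rps7, Rpsa and Rpl7a, and in 2 genes under it, Rpl38 and Rpl35a. They are at chr17:27635225-27635264 (minus strand) for Rps10, chr3:90213629-90213668 (minus) for Rps27, chr12:28635934-28635973 (minus) for Rps7, chr9:120127746-120127785 (plus) for Rpsa, chr2:26910787-26910826 (plus) for Rpl7a, chr11:114668560-114668599 (plus) for Rpl38 and chr16:33056462-33056501 (plus) for Rpl35a.
Rps10: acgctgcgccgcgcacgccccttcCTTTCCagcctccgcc
Rps27: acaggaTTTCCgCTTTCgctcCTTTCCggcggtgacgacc
Rps7: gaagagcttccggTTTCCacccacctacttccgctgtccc
Rpsa: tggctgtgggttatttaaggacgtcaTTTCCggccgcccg
Rpl7a: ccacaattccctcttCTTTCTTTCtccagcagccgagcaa
Rpl38: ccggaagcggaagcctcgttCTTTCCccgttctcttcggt
Rpl35a: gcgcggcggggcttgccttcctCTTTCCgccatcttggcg
In Rpl38 the motif begins at the first annotated base, and in Rps10, Rpsa and Rpl35a the motif lies after the start. In Rps7 it lies before the start, in Rps27 there are copies on both sides, and in Rpl7a it spans the start.

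The other genes of translation are set beside the median SD of 0.12 of the ribosomal protein genes. Of 18 other genes with TOP mRNAs, 15 had a probe set and 12 were above threshold, against 59.1% of all named genes. Their median SD was 0.29, against 0.25 for all measured genes, and 2 were more than 2-fold apart, against 10.2%. Eef1a1, which brings tRNAs to the ribosome, gave 12137, 23563 and 12701, and Eef2, which moves the ribosome along the mRNA, gave 2161.5, 4451 and 1977. Both were highest on array 2, where the 3'/5' quotients of Gapdh and Actb were lowest, at 1.21 and 1.86. The part of those quotients was not tested. Eef1b2, the exchange factor for Eef1a1, gave 541, 404 and 154. Naca, which binds nascent chains, gave 2458, 2462 and 2430.3, and Tpt1 gave 20815, 20386 and 21149. In limma, an unadjusted p under 0.05 was reached by 3 of the 12, Eef1a1, Eef1b2 and Eef2, against 4.57% of measured genes. After adjustment over all probe sets, 0 passed the limma test.

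Of 61 mitochondrial ribosomal protein genes, which serve the separate ribosome of mitochondria, 53 were above threshold, against 59.1% of all named genes. Their median SD was 0.19, with 3 genes more than 2-fold apart, against 10.2% of measured genes. Mrpl45, the membrane anchor of that ribosome, gave 1321, 1268 and 497. It was the 1 gene of this list with an unadjusted p under 0.05 (limma, adjusted p = 0.733), against 4.57% of measured genes. The median shift of the 53 genes on array 3 was -0.039, against 0.060 for all measured genes, and 29 lay below the others, against 43.5%. Of 26 ribosome assembly genes, 24 had a probe set and 18 were above threshold, with a median SD of 0.20 and a median shift of 0.012 on array 3. Nucleolin (Ncl) gave 2600, 2698.5 and 2506, and Bysl, a factor for the small subunit, gave 405, 653 and 909.6, the 1 assembly gene more than 2-fold apart. In both lists 0 genes passed the limma variance test after adjustment. No difference between these lists and the ribosomal protein genes was tested.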

How the data were processed

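The authors deposited 1 linear signal intensity per probe set and array. No label or header names the program behind it, its background correction or its scaling. Per the labels, the arrays share 1 group. Of 12488 probe sets 66 were controls, 396 named several genes and 1193 were unnamed here, and 0 columns of other samples were present. Names came from the platform annotation, updated through Entrez identifiers to GRCm38.p6, which changed 0 member symbols.

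Each array was scaled to a common median over the 6218 probe sets above threshold (factors 0.991, 0.987 and 1.02), raised to a floor of 47.5 (the 25th percentile over the whole table) and put on the log2 scale. Levels are deposited signals. The variance test used limma (3.58.1, under R 4.3.3), against a robust intensity-dependent prior (fitFDistRobustly, tails winsorised at 0.05 and 0.1), with Benjamini-Hochberg adjustment over all 6218 probe sets and a threshold of 0.05. On simulated data for these 6218 probe sets, the test called 0% of changes of 2 log2 units on 1 array and 99.25% of changes of 4. Many probe sets were changed at once there, which eases the adjustment, so a gene changed alone may be called less often. In the deposited data Ttr, with a log2 range of 5.45, only just passed (limma, adjusted p = 0.0492). A lack of calls therefore does not show that smaller differences are absent. With 3 arrays, precision is limited throughout.

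The members, lists and tests were chosen with earlier results of these data known. Genes named are members under threshold, stalk and paralog genes, well-known members, genes with several probe sets, and those with the largest or smallest range or an unadjusted p under 0.05. Rpl6, Rpl41 and the single genes of the other lists were named after their values were seen. Alternatives were other scalings, floors, thresholds, probe sets, priors and leaving out each array. Protein sequence features were not analysed here.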

Additional observations from a re-analysis of the deposited data

How the results depend on the processing

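With 15 alternative settings, 90 values were recomputed, of which 10 moved and 80 did not. A move was more than 1.5 times for counts and the median SD, and more than the median SD for shifts. For shifts this margin, 0.12, is larger than each reported median shift. A shift could therefore change sign, as on array 2, and still count among the 80. The count of genes past the limma variance test was 0 in each setting. The number of ribosomal protein genes above threshold was 35, by construction, with none set, 31 with the threshold at the 25th percentile, 22 at the 75th and 20 with plain-suffix probe sets only. In the same order, 8251, 6925, 2569 and 4409 of all named genes were above it. The count of genes more than 2-fold apart, 1 as reported (Rps13), was 2 with no scaling, 2 after cyclic loess, 2 with the threshold at the 25th percentile and 2 with no threshold. Over all measured genes the share, 10.2% as reported, was 10.1%, 10.2%, 21.5% and 18.1% in these settings. The ribosomal count was 0 with the threshold at the 75th percentile, against 5.53% of all genes. It was also 0 with plain-suffix probe sets only, against 10.4%, which by construction leave Rps13 out. Leaving out 1 array gave 0 to 1, against 2.89% to 6.49% of all genes. The median shift on array 3 was -0.21 after cyclic loess, against -0.066, and the cause was not tested. It was -0.13 after quantile normalization and -0.11 with no scaling, and the median on array 2 changed sign after both normalizations, to 0.016 with quantiles and 0.048 with loess. Over all measured genes the array 3 median was 0.0045 after loess, 0.031 after quantiles and 0.014 with no scaling. Leaving out 1 array gave ribosomal medians of -0.098 to -0.025 on array 3, 0.064 to 0.098 on array 1 and -0.064 to 0.025 on array 2. For all measured genes these were 0.043 to 0.073, -0.043 to 0.039 and -0.073 to -0.039. The median SD, 0.12 as reported, ran from 0.082 to 0.13 when 1 array was left out, was 0.15 after quantile normalization and reached 0.16 after cyclic loess. For all measured genes it was 0.161 to 0.235 when 1 array was left out and 0.24 after either normalization. No paired analysis was possible because there is a single group of arrays. Signals near the floor of 47.5 carry no order, which limits the 10 genes under threshold.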

Other observations

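The 39 probe sets that name a ribosomal protein among several genes were outside the members. Of these, 34 were above threshold, against 52.0% of all single-gene probe sets. The 34 had median log2 shifts of 0.010, -0.015 and -0.017 on arrays 1, 2 and 3, against 0.10, -0.047 and -0.066 for the 25 members. Over all measured genes the medians were 0.0039, -0.065 and 0.060. The median SD of log2 signal of the 34 was 0.14, against 0.12 for the 25 members. More than 2-fold apart were 2 of the 34, against 10.2% of measured genes. The wider of them, a probe set that names Rpl29 and several predicted genes, gave 11.9, 624 and 22.7, so that its mean was above threshold through array 2 alone (limma, adjusted p = 0.944). A probe set that names Rpl3 and predicted genes gave 181, 123 and 239, whereas the other probe set of the same genes gave 7961, 8726 and 7369. A probe set that names Rps6 and a pseudogene gave 9525, 13163 and 9644, highest on array 2, and one for Rplp1 with a predicted gene gave 20996, 24193 and 20571.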
